A study of Mus musculus with 12 samples.

Results

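The genes described here are 10 that have been tied to the dedifferentiated state of melanoma, measured in B16F10 cells, a long-established line of mouse melanoma. They are the TAM receptors Axl, Tyro3 and Mertk, their ligand gene Gas6, the epidermal growth factor receptor gene Egfr, the platelet-derived growth factor receptor genes Pdgfra and Pdgfrb, Fgfr1, Epha2 and Ngfr. They were taken by symbol, and all 10 were found among the 54752 genes of the count table, of which 8 were among the 18434 genes with enough counts to be tested. The 12 RNA-seq libraries form 4 groups of 3: the double knockout of Ep300 and Crebbp, the Ep300 knockout, the Crebbp knockout, and the control, whose genotype is given as WT. Ep300 codes for p300 and Crebbp for CBP, related lysine acetyltransferases that act as coactivators of transcription. All groups share the cell line and its medium, DMEM with 10% FBS. The labels do not say how the genes were disrupted, whether a knockout is 1 clone or a pool, what the control cells received, or whether the 3 libraries of a group came from separate cultures, so the p-values cover only the spread among these libraries, and part or all of it may be technical.

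A receptor tyrosine kinase spans the cell membrane, binds a ligand outside the cell and, once receptors have come together, phosphorylates itself and recruits adaptor proteins that start the RAS-ERK and PI3K-AKT cascades. In human melanoma, cells that lose the pigment programme driven by MITF often gain AXL, EGFR, PDGFRB and the neural crest receptor NGFR, a state known for tolerance of BRAF and MEK inhibitors. Not every gene of the set is a kinase: Gas6 is a secreted ligand, and Ngfr encodes p75NTR, a neurotrophin receptor of the TNF receptor superfamily with no kinase domain. Levels are given as CPM, a gene's counts scaled to a common library total, here after TMM (trimmed mean of M values) scaling. A gene is said to have risen or fallen where the quasi-likelihood F test of edgeR gave an adjusted p (Benjamini-Hochberg over all tested genes) under 0.05. Log2 fold changes carry standard errors, levels carry SDs, and n = 3 libraries per group.

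Libraries held 64257251 to 85604243 counts. In the libraries labelled Crebbp knockout, Crebbp RNA ranged from 30.3 to 36.8 CPM, against 56.7 to 69.5 CPM in control. In the double-knockout libraries it ranged from 57.1 to 68.7 CPM. Ep300 RNA stood at 138 to 160 CPM in the double knockout, 77.5 to 94.7 CPM in the Ep300 knockout and 85.5 to 99.2 CPM in control. Crebbp RNA was thus below control in the Crebbp knockout but not in the double knockout, whose Ep300 RNA lay above control. The RNA level did not bear out the double-knockout label, nor that of the Ep300 knockout, where Ep300 RNA overlapped control. Counts per gene cannot show a disrupted exon, so these labels could not be checked further, and each group is called by its label. The summed level of 7 melanocyte markers (Mitf, Sox10, Pmel, Mlana, Tyr, Tyrp1 and Dct) was 6526 to 6694 CPM in the double knockout, 14299 to 15024 CPM in the Ep300 knockout, 18351 to 19164 CPM in the Crebbp knockout and 19448 to 21397 CPM in control, so the labelled cell type was borne out in every group. In bulk RNA, fewer cells of a type and less RNA per cell cannot be told apart.

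The genes divide into those higher than control in both groups labelled with loss of Ep300 (Axl, Epha2, Ngfr), those called against control in the double knockout only (Pdgfra, Pdgfrb, Tyro3), 1 that was lower in both (Mertk), 1 with no call (Fgfr1) and a pair with almost no counts (Egfr and Gas6). In the double knockout, 5 of the 8 tested genes rose and 2 fell, where 49.4% of all tested genes were called (24.7% higher, 24.6% lower). In the Ep300 knockout 3 rose and 1 fell, against a background of 16.1% of genes called (7.27% higher, 8.83% lower). In the Crebbp knockout 1 rose and none of the others passed, against 3.13% called (1.52% higher, 1.61% lower). The median log2 fold change against control over the 8 genes was 1.14 in the double knockout, 0.30 in the Ep300 knockout and 0.26 in the Crebbp knockout, where the median over all tested genes was -0.02 in the double knockout, 0.01 in the Ep300 knockout and -0.01 in the Crebbp knockout. By another count, each library of the double knockout lay beyond each control library for 7 of the 8 genes, 5 above and 2 below, as for 59.7% of all tested genes. The Ep300 knockout stood clear of control for 5 of the 8 (4 above, 1 below), where 28.4% of all tested genes did, and the Crebbp knockout for 4, all above, where 20.5% did. With so many genes called in the double knockout, the number of calls there says little about these genes. The genes and the lists below were chosen with earlier results of these data known. Their counts and medians therefore describe them and are no test of them as a set.

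**Figure D1:**
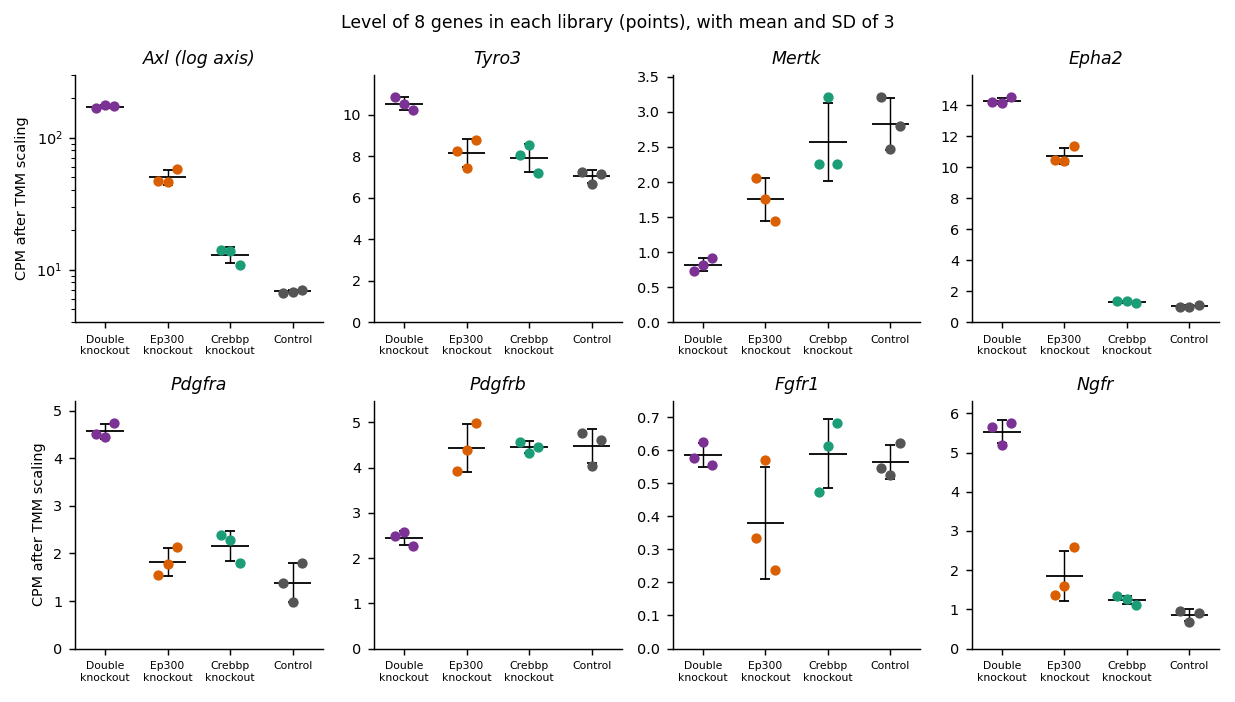
Level in CPM (vertical axes) of the 8 tested genes in each of 12 libraries, with the groups along the horizontal axes from double knockout on the left to control on the right; points are libraries, and bars give the mean and SD of 3. Axl, drawn on a log axis, separates all 4 groups, and Epha2 separates the double knockout and Ep300 knockout (at least 10.4 CPM) from the Crebbp knockout and control (at most 1.34 CPM).

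Axl encodes the TAM receptor most closely tied to invasion and drug tolerance in human melanoma. It lies on mm10 chromosome 7, 25757273 to 25788705, minus strand (ENSMUSG00000002602). The double-knockout libraries held 166, 176 and 172 CPM of Axl, the Ep300-knockout libraries 47.0, 46.4 and 57.6 CPM, the Crebbp-knockout libraries 14.1, 14.0 and 10.9 CPM, and the control libraries 6.67, 6.82 and 7.05 CPM. No library of a group reached the range of another group, and the order was double knockout, Ep300 knockout, Crebbp knockout, control. Against control, Axl rose by 4.65 ± 0.11 on the log2 scale in the double knockout (25.0-fold, adjusted p = 1.02e-13), by 2.88 ± 0.11 in the Ep300 knockout (7.35-fold, adjusted p = 4.6e-11) and by 0.93 ± 0.11 in the Crebbp knockout (1.90-fold, adjusted p = 0.000207). It was the only one of the 8 genes called in the Crebbp knockout. Between the single knockouts it was higher in the Ep300 knockout by 1.95 ± 0.10 (adjusted p = 2.78e-09).

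Epha2, on chromosome 4, 141301240 to 141329384, plus strand (ENSMUSG00000006445), encodes a receptor for ephrin-A ligands that is often raised in melanoma with acquired drug resistance. Its level was 14.2, 14.1 and 14.5 CPM in the double knockout, 10.5, 10.4 and 11.3 CPM in the Ep300 knockout, 1.34, 1.34 and 1.26 CPM in the Crebbp knockout, and 1.02, 0.997 and 1.09 CPM in control. The groups fall into a high pair and a low pair, divided by whether the label gives loss of Ep300. Epha2 rose by 3.78 ± 0.09 in the double knockout (13.8-fold, adjusted p = 1.21e-13) and by 3.37 ± 0.09 in the Ep300 knockout (10.3-fold, adjusted p = 3.14e-12), both against control. Its log2 fold change in the Crebbp knockout was 0.34 ± 0.11 (adjusted p = 0.123, 95% interval 0.11 to 0.58). Each Crebbp-knockout library lay above each control library, as was so for 4 of the 8 genes. The double knockout exceeded the Ep300 knockout by 0.41 ± 0.08 (adjusted p = 0.00085), and the Ep300 knockout exceeded the Crebbp knockout by 3.03 ± 0.09 (adjusted p = 1.33e-11).

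Ngfr, on chromosome 11, 95568818 to 95587735, minus strand (ENSMUSG00000000120), marks neural crest cells and the neural crest-like state of melanoma. It stood at 5.64, 5.20 and 5.74 CPM in the double knockout, 1.36, 1.60 and 2.58 CPM in the Ep300 knockout, 1.34, 1.25 and 1.12 CPM in the Crebbp knockout, and 0.952, 0.682 and 0.918 CPM in control. The double-knockout libraries lay above all others, and the Ep300 knockout had the widest spread, with replicate 3 the highest of its group. Ngfr rose by 2.68 ± 0.21 in the double knockout (6.42-fold, adjusted p = 5.4e-08) and by 1.11 ± 0.22 in the Ep300 knockout (adjusted p = 0.00198), and had a log2 fold change of 0.53 ± 0.23 in the Crebbp knockout (adjusted p = 0.24, 95% interval 0.04 to 1.01). The Ep300 knockout differed from the Crebbp knockout by 0.58 ± 0.21 (adjusted p = 0.0832).

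The promoter windows of these 3 genes are shown because they are the genes with the largest rises. Each runs 5′ to 3′ on the strand of its gene and comes from the RefSeq promoter table of build GRCm38.p6. The RefSeq start differs from the edge of the gene given above, which is that of the GENCODE annotation: for Axl and Epha2 it lies outside that edge, and for Ngfr 37 bases inside it. The printed sequence covers the 250 bases before the RefSeq start or, for Ngfr, the 213 bases of that window that lie outside the GENCODE gene body: chr7:25788734-25788983 (minus strand) for Axl, chr4:141300971-141301220 (plus strand) for Epha2 and chr11:95587736-95587948 (minus strand) for Ngfr. Capitals mark matches, on either strand, to any of 5 motifs.
Axl: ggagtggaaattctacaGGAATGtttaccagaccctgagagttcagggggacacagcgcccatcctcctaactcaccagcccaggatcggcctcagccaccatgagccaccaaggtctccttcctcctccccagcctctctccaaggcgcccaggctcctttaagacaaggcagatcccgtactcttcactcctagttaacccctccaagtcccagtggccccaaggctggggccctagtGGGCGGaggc
Epha2: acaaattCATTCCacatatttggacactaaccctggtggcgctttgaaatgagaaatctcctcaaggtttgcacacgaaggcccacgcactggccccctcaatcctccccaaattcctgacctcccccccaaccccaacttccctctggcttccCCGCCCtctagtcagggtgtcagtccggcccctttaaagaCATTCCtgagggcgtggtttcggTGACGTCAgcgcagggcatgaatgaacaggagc
Ngfr: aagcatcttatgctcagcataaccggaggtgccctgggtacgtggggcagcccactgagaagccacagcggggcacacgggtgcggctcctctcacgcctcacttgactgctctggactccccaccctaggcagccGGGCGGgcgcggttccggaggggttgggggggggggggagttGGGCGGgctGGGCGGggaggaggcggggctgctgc
The motifs were TGANTCA (AP-1), TGACG (the core of the cyclic AMP response element), GGAATG (TEAD factors), CACGTG (an E-box) and GGGCGG (a GC box). Among 32851 mouse promoter windows of 250 bases, matches were found in 6.75% for AP-1, 17.8% for the cyclic AMP element core, 12.6% for TEAD, 6.02% for the E-box and 32.7% for the GC box. Distances are counted from the RefSeq start, which for Ngfr is 37 bases beyond the end of the printed sequence. The Axl window held a TEAD match 233 bases and a GC box 10 bases before the start. The Epha2 window held cyclic AMP element cores 33 and 30 bases before the start, overlapping on opposite strands, as well as TEAD matches 243 and 56 bases and a GC box 96 bases before it. The Ngfr stretch held GC boxes 114, 72 and 63 bases before the start and no TEAD letters. Of the 10 genes, 8 had an entry in the table, and of these 7 held a GC box, 2 a TEAD match (Axl and Epha2), 2 a cyclic AMP element core (Epha2 and Pdgfra) and none an AP-1 match or E-box. The Tyro3 window, which held GC boxes, lay wholly inside the GENCODE gene body. GC content was 60.0% for Axl, 55.6% for Epha2 and 70.4% for Ngfr, against a median of 52.4% over all windows. A match is a run of letters and says nothing of binding in these cells.

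The other TAM receptors did not follow Axl. Tyro3 (ENSMUSG00000027298, chromosome 2, 119797733 to 119818104, plus strand), a receptor for protein S and GAS6, had 10.9, 10.5 and 10.3 CPM in the double knockout, 8.28, 7.44 and 8.78 CPM in the Ep300 knockout, 8.05, 8.56 and 7.22 CPM in the Crebbp knockout, and 7.26, 6.66 and 7.17 CPM in control. Only the double-knockout libraries stood clear of all the others. Tyro3 rose there by 0.58 ± 0.09 (1.50-fold, adjusted p = 7.27e-05), with log2 fold changes of 0.21 ± 0.09 in the Ep300 knockout (adjusted p = 0.136) and 0.17 ± 0.09 in the Crebbp knockout (adjusted p = 0.343).

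Mertk (ENSMUSG00000014361, chromosome 2, 128698956 to 128802894, plus strand), the TAM receptor best known for the uptake of dying cells by phagocytes, had 0.729, 0.815 and 0.920 CPM in the double knockout, 2.06, 1.76 and 1.44 CPM in the Ep300 knockout, 2.25, 3.21 and 2.26 CPM in the Crebbp knockout, and 3.21, 2.47 and 2.80 CPM in control. Every double-knockout library lay below every other library, and the Crebbp knockout and control overlapped. Mertk fell by 1.78 ± 0.19 on the log2 scale in the double knockout (adjusted p = 1.98e-06) and by 0.70 ± 0.18 in the Ep300 knockout (adjusted p = 0.0136), both against control. The second call was lost without Ep300-knockout replicate 3 (adjusted p = 0.0609) or without control replicate 1 (adjusted p = 0.0702). In the Crebbp knockout the log2 fold change was -0.14 ± 0.18 (adjusted p = 0.715).

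Set beside each other per kilobase of exon, the 3 TAM genes summed to 35.9 ± 0.988 CPM per kilobase in the double knockout, 11.7 ± 1.28 in the Ep300 knockout, 4.46 ± 0.543 in the Crebbp knockout and 3.15 ± 0.129 in control. Axl made up 94.7 ± 0.206% of that sum in the double knockout, 85.2 ± 1.48% in the Ep300 knockout, 57.9 ± 2.47% in the Crebbp knockout and 43.3 ± 2.17% in control. Mertk made up 0.526 ± 0.0556% of it in the double knockout, 3.51 ± 0.889% in the Ep300 knockout, 13.3 ± 1.96% in the Crebbp knockout and 20.7 ± 2.01% in control. The TAM transcript pool was thus nearly all Axl in the double knockout and shared with Tyro3 and Mertk in control.

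The ligands of these receptors differed from each other in level. Gas6 (ENSMUSG00000031451, chromosome 8, 13465374 to 13494490, minus strand), the ligand of all 3 receptors, had 2 counts in Ep300-knockout replicate 2 and none in the other 11 libraries. A count of 0 allows a level of up to 0.0321 to 0.0525 CPM, depending on the library, from counting error alone. Pros1, which encodes protein S, a ligand of Tyro3 and Mertk, stood at 33.9 ± 0.897 CPM in the double knockout, 20.8 ± 1.15 CPM in the Ep300 knockout, 20.7 ± 1.14 CPM in the Crebbp knockout and 20.1 ± 0.411 CPM in control. It rose by 0.76 ± 0.07 on the log2 scale in the double knockout against control (adjusted p = 2.31e-07).

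The platelet-derived growth factor receptors moved in opposite directions. Pdgfra (ENSMUSG00000029231, chromosome 5, 75152292 to 75198215, plus strand), which marks mesenchymal and neural crest-derived cells, had 4.52, 4.44 and 4.74 CPM in the double knockout, 1.56, 1.77 and 2.13 CPM in the Ep300 knockout, 2.39, 2.28 and 1.80 CPM in the Crebbp knockout, and 1.38, 0.979 and 1.80 CPM in control. The double-knockout libraries stood apart, and the lowest Crebbp-knockout library was close to the highest control library. Pdgfra rose by 1.70 ± 0.18 in the double knockout (3.26-fold, adjusted p = 2.24e-06), and its log2 fold change was 0.38 ± 0.19 in the Ep300 knockout (adjusted p = 0.225) and 0.63 ± 0.19 in the Crebbp knockout (adjusted p = 0.0943, 95% interval 0.22 to 1.04). The Crebbp-knockout value passed with DESeq2 (adjusted p = 0.0264), without a filter on low counts (0.0112) and with offsets for exon length and GC content (0.0395).

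Pdgfrb (ENSMUSG00000024620, chromosome 18, 61045150 to 61085061, plus strand), raised in some human melanomas with resistance to BRAF inhibitors, had 2.48, 2.57 and 2.27 CPM in the double knockout, 3.92, 4.40 and 4.98 CPM in the Ep300 knockout, 4.57, 4.31 and 4.45 CPM in the Crebbp knockout, and 4.76, 4.04 and 4.62 CPM in control. The single knockouts and control overlapped, and the double knockout lay below all of them. Pdgfrb fell by 0.88 ± 0.11 on the log2 scale in the double knockout against control (adjusted p = 1.63e-05). The log2 fold change was -0.02 ± 0.11 in the Ep300 knockout (adjusted p = 0.957, 95% interval -0.25 to 0.22) and -0.01 ± 0.11 in the Crebbp knockout (adjusted p = 0.971, 95% interval -0.25 to 0.23). Per kilobase of exon, Pdgfra made up 50.6 ± 2.46% of the sum of both receptors in the double knockout, 18.3 ± 0.606% in the Ep300 knockout, 20.9 ± 2.43% in the Crebbp knockout and 14.3 ± 2.96% in control. The sum itself was 0.901 ± 0.0134 CPM per kilobase in the double knockout, 0.990 ± 0.126 in the Ep300 knockout, 1.03 ± 0.0416 in the Crebbp knockout and 0.955 ± 0.104 in control.

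**Figure D2:**
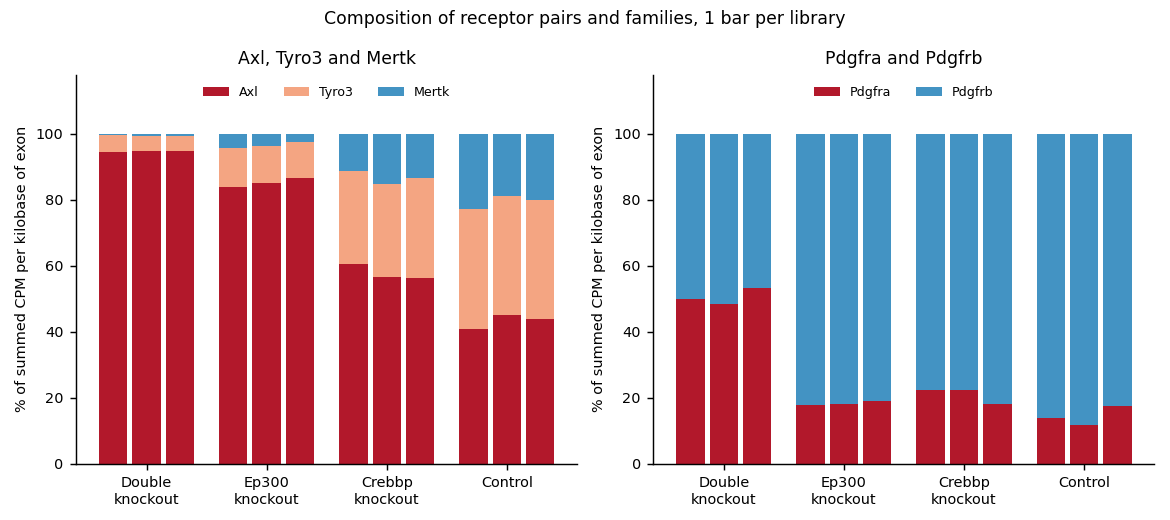
Share (vertical axis, percent of summed CPM per kilobase of exon) of each gene in the TAM family and in the platelet-derived growth factor receptor pair, with 1 stacked bar per library and groups from double knockout on the left to control on the right. Axl fills 94.5 to 94.9% of the TAM bars in the double knockout and 40.9 to 45.2% in control, and Pdgfra fills 48.5 to 53.3% of the receptor pair in the double knockout and 11.7 to 17.5% in control.

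Fgfr1 and Egfr were at the low end. Fgfr1 (ENSMUSG00000031565, chromosome 8, 25513654 to 25575718, plus strand), a fibroblast growth factor receptor, had 0.576, 0.626 and 0.556 CPM in the double knockout, 0.333, 0.569 and 0.238 CPM in the Ep300 knockout, 0.475, 0.612 and 0.681 CPM in the Crebbp knockout, and 0.546, 0.525 and 0.621 CPM in control, from as few as 20 counts in a library. No group stood clear of the control, and the Ep300 knockout held both the lowest libraries and the widest spread. Its log2 fold change against control was 0.05 ± 0.28 in the double knockout (adjusted p = 0.899, 95% interval -0.54 to 0.65), -0.57 ± 0.29 in the Ep300 knockout (adjusted p = 0.236) and 0.06 ± 0.29 in the Crebbp knockout (adjusted p = 0.939). Without Ep300-knockout replicate 2, the highest of its group, the Ep300-knockout value was -0.99 with an adjusted p of 0.0353. Egfr (ENSMUSG00000020122, chromosome 11, 16752203 to 16918158, plus strand) had 1 count in control replicate 2 and none in the other 11 libraries, so its RNA was not detectable at this depth in any knockout group.

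**Figure D3:**
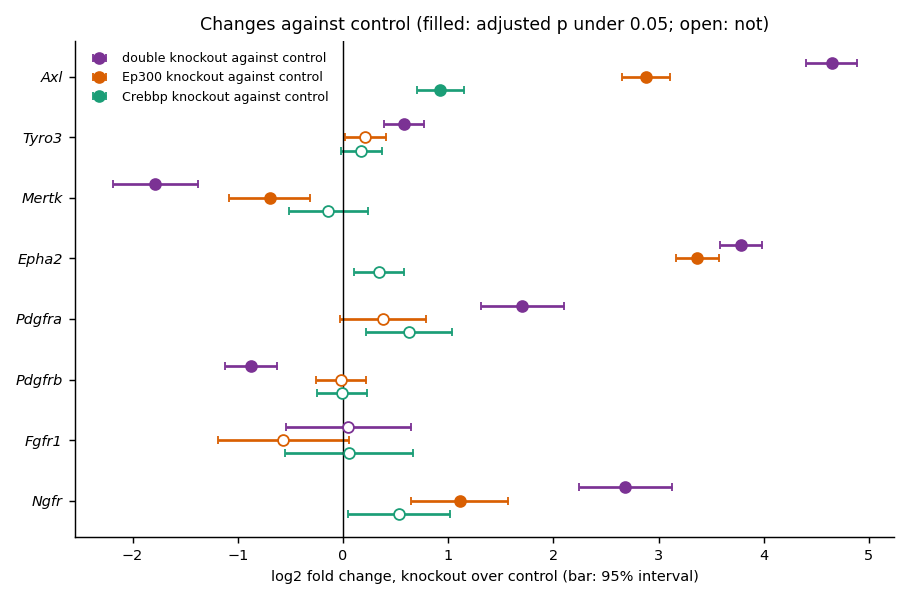
Log2 fold change against control (horizontal axis) of the 8 tested genes (rows) in the double knockout, Ep300 knockout and Crebbp knockout, with 95% intervals as bars; filled points have an adjusted p under 0.05. Axl and Epha2 reach 4.65 and 3.78 in the double knockout, and Mertk and Pdgfrb lie at -1.78 and -0.88.

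Axl and Epha2 also differed between the single knockouts. Between the Ep300 knockout and the Crebbp knockout, both genes were higher in the Ep300 knockout and no other of the 8 passed, where 13.6% of all tested genes were called (6.26% higher, 7.37% lower) and 27.1% had groups that did not overlap, as 4 of the 8 did. Mertk came closest at -0.56 ± 0.18 (adjusted p = 0.0538), and passed in 6 of 21 alternatives. Ngfr, given above, passed in 3 of 21. Between the double knockout and the Ep300 knockout, 5 genes were higher and 2 lower, where 34.6% of all tested genes were called (18.0% higher, 16.6% lower). These 7 genes also had groups that did not overlap, as did 47.4% of all tested genes. Axl exceeded the Ep300-knockout level by 1.77 ± 0.10 (adjusted p = 6.59e-09), Ngfr by 1.57 ± 0.19 (adjusted p = 2.08e-05) and Pdgfra by 1.32 ± 0.18 (adjusted p = 5.92e-05). Mertk was lower by a log2 difference of -1.09 ± 0.19 (adjusted p = 0.000681) and Pdgfrb by -0.86 ± 0.11 (adjusted p = 5.38e-05). Between the double knockout and the Crebbp knockout, the same numbers were called, 5 higher and 2 lower, with 43.2% of all tested genes called (21.4% higher, 21.8% lower) and 56.5% with groups that did not overlap. There the log2 difference was 3.72 ± 0.11 for Axl and 3.44 ± 0.09 for Epha2.

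The design also allows the double knockout to be set against the sum of both single-knockout changes on the log2 scale, which is the change expected if each loss acted by its own factor. Of the 8 genes, 2 lay above the sum and 2 below it, where 10.3% of all tested genes were called (5.33% above, 4.96% below). For Axl the single changes summed to 3.80, and the double knockout exceeded that by 0.84 ± 0.14 (adjusted p = 0.00161). For Pdgfrb they summed to -0.03, and the double knockout lay at -0.85 ± 0.16 from the sum (adjusted p = 0.0035). Epha2 lay within error of the sum: the singles gave 3.71 and the difference was 0.07 ± 0.13 (adjusted p = 0.789, 95% interval -0.22 to 0.36).

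The other additivity calls were less stable. Ngfr exceeded its sum of 1.64 by 1.04 ± 0.30 (adjusted p = 0.0362), a call that was lost on removal of any 1 of 9 of the 12 libraries (adjusted p 0.0602 to 0.103): each double-knockout library, Ep300-knockout replicates 1 and 2, Crebbp-knockout replicates 2 and 3, and control replicates 1 and 3. Mertk lay at -0.95 ± 0.26 from its sum of -0.84 (adjusted p = 0.0326), a call lost on removal of any 1 of 6 libraries (adjusted p 0.0739 to 0.0870): double-knockout replicates 1 and 2, Ep300-knockout replicates 1 and 2, Crebbp-knockout replicate 2 and control replicate 3. Pdgfra differed from its sum of 1.00 by 0.70 ± 0.26 (adjusted p = 0.105). It passed without control replicate 2 (adjusted p = 0.0202) and without a filter on low counts (adjusted p = 0.0318). It also passed without control replicate 2 and Crebbp-knockout replicate 3 together (adjusted p = 0.0367).

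**Figure D4:**
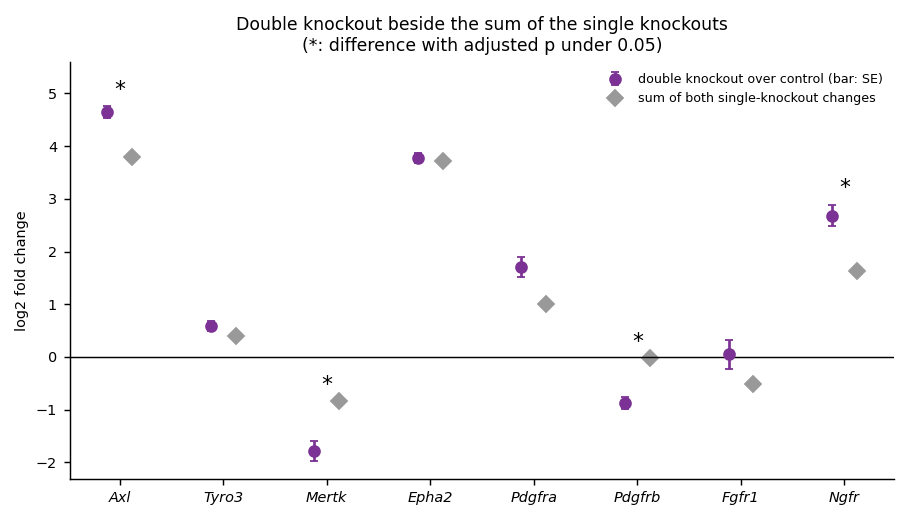
Log2 fold change against control (vertical axis) of the 8 tested genes in the double knockout (circles, with standard errors) beside the sum of the changes in the Ep300 knockout and the Crebbp knockout (diamonds); an asterisk marks a difference with an adjusted p under 0.05. Axl exceeds its sum (4.65 against 3.80), Epha2 is close to it (3.78 against 3.71), and Pdgfrb falls below a sum near 0 (-0.88 against -0.03).

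Among the 8 tested genes, levels per kilobase of exon ran from Axl at the top to Fgfr1 at the bottom in every group, with Egfr and Gas6, almost without counts, below Fgfr1. In the double knockout the order was Axl at 34.1 ± 1.01, Epha2 at 3.06 ± 0.0444, Tyro3 at 1.70 ± 0.0490, Ngfr at 1.60 ± 0.0846, Pdgfra at 0.456 ± 0.0153, Pdgfrb at 0.446 ± 0.0287, Mertk at 0.189 ± 0.0221 and Fgfr1 at 0.0594 ± 0.00363 CPM per kilobase. Tyro3 overlapped Ngfr, and Pdgfra overlapped Pdgfrb. In control the order was Axl at 1.36 ± 0.0385, Tyro3 at 1.14 ± 0.0521, Pdgfrb at 0.817 ± 0.0697, Mertk at 0.651 ± 0.0862, Ngfr at 0.247 ± 0.0427, Epha2 at 0.222 ± 0.0110, Pdgfra at 0.138 ± 0.0408 and Fgfr1 at 0.0571 ± 0.00514 CPM per kilobase. There Pdgfrb overlapped Mertk, and Ngfr overlapped Epha2. Epha2 stood second in the double knockout and in the Ep300 knockout and sixth in the Crebbp knockout and in control.

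Among all 58 receptor tyrosine kinase genes in the table, ranked per kilobase of exon, Axl was number 2 in the double knockout, 6 in the Ep300 knockout, 11 in the Crebbp knockout and 14 in control. It held 19.6% of the summed receptor kinase signal in the double knockout, 5.66% in the Ep300 knockout, 1.15% in the Crebbp knockout and 0.591% in control. Met, the hepatocyte growth factor receptor, was number 1 in every group, at 38.1 CPM per kilobase in the double knockout and 102 in control.

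**Figure D5:**
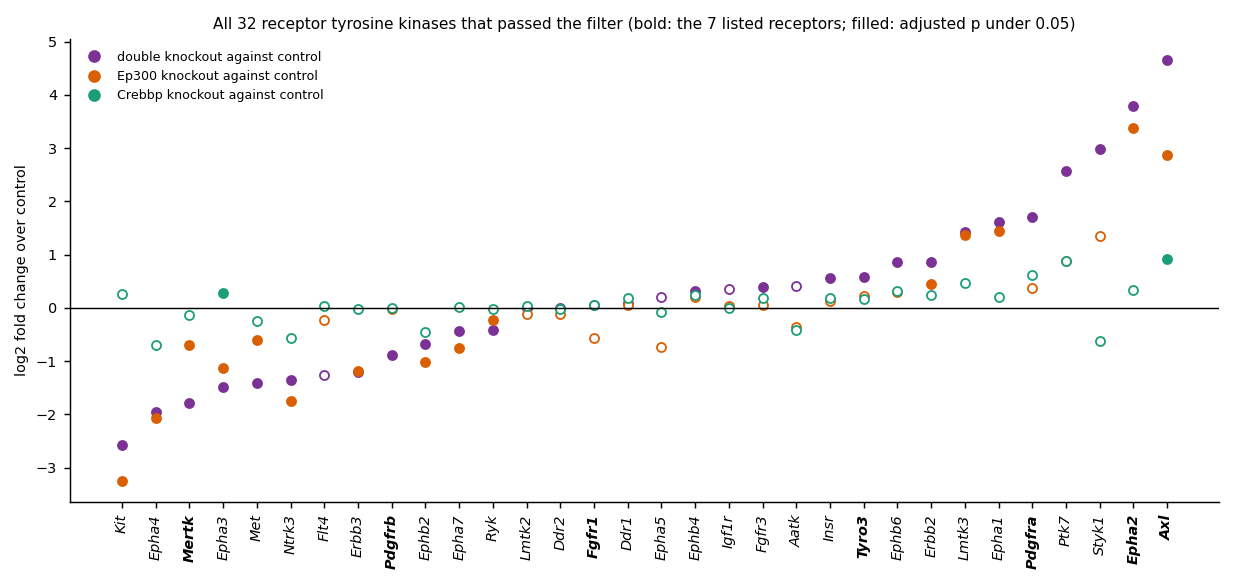
Log2 fold change against control (vertical axis) in the double knockout, Ep300 knockout and Crebbp knockout of the 32 receptor tyrosine kinase genes that passed the filter on low counts (horizontal axis, ordered by the double-knockout value); filled points have an adjusted p under 0.05, and the 7 listed receptors are in bold. In the double knockout, 13 genes were called higher and 11 lower, with Axl at 4.65 and Kit at -2.58.

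Other receptor tyrosine kinases changed in both directions. Of 50, 25 had enough counts to be tested. In the double knockout 9 rose and 9 fell (median log2 fold change 0.09), in the Ep300 knockout 3 rose and 9 fell (median -0.11), and in the Crebbp knockout 1 rose and none fell (median 0.03). Over all tested genes, 49.4% were called in the double knockout (24.7% higher, 24.6% lower) and 16.1% in the Ep300 knockout (7.27% higher, 8.83% lower). The share in the Crebbp knockout was 3.13% (1.52% higher, 1.61% lower). Kit, the receptor for stem cell factor that melanocytes need, stood at 2.16 CPM in the double knockout, 1.36 CPM in the Ep300 knockout, 15.6 CPM in the Crebbp knockout and 12.9 CPM in control, and fell by 2.58 ± 0.10 on the log2 scale in the double knockout and by 3.24 ± 0.11 in the Ep300 knockout. Erbb3, the neuregulin receptor, stood at 21.4 CPM in the double knockout, 21.5 CPM in the Ep300 knockout, 48.6 CPM in the Crebbp knockout and 49.1 CPM in control, and fell by 1.20 ± 0.11 in the double knockout and by 1.20 ± 0.11 in the Ep300 knockout. Kit and Erbb3 thus divided the groups as Epha2 did, in the opposite direction.

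Met stood at 293 CPM in the double knockout, 513 CPM in the Ep300 knockout, 655 CPM in the Crebbp knockout and 780 CPM in control. It fell by 1.41 ± 0.08 in the double knockout, and lay at -0.56 ± 0.11 from the sum of the single changes (adjusted p = 0.00357). Epha3, another ephrin-A receptor, fell by 1.48 ± 0.07 in the double knockout and by 1.13 ± 0.07 in the Ep300 knockout, and rose in the Crebbp knockout by 0.28 ± 0.06 (adjusted p = 0.0286), a call that was lost without any 1 of 7 libraries: double-knockout replicates 1 and 3, Crebbp-knockout replicates 1 and 2, or any control library (adjusted p 0.0518 to 0.122). Epha4 fell by 1.96 ± 0.24 and Ryk, a Wnt-binding pseudokinase, by 0.41 ± 0.06 in the double knockout. Among these 25, Styk1 rose most, by 2.99 ± 0.43, with a control mean of 0.111 CPM, and Ptk7 rose by 2.57 ± 0.31, with a control mean of 0.353 CPM. Epha1 rose by 1.62 ± 0.14 and Erbb2, the partner of Erbb3, by 0.87 ± 0.10. Of the other RTK genes, 1 lay above the sum of the single changes, Aatk at 1.19 (adjusted p = 0.0172), named after its value was seen. Met and Epha3 were the 2 below it. Over all tested genes, 5.33% lay above the sum and 4.96% below it.

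Of 28 ligand genes of the listed receptors other than Gas6, 18 were tested. In the double knockout 11 rose and 2 fell (median log2 fold change 1.02), where 24.7% of all tested genes rose and 24.6% fell. In the Ep300 knockout 5 rose and 1 fell (median 0.23), where 7.27% of all tested genes rose and 8.83% fell, and in the Crebbp knockout 1 rose and 1 fell (median 0.21), where 1.52% rose and 1.61% fell. The 4 that exceeded the sum of the single changes were Bdnf, Hbegf, Tgfa and Pros1, where 5.33% of all tested genes lay above it. Bdnf, a neurotrophin that p75NTR binds, stood at 26.1 ± 0.502 CPM in the double knockout, 9.55 ± 0.300 CPM in the Ep300 knockout, 5.16 ± 0.401 CPM in the Crebbp knockout and 3.37 ± 0.191 CPM in control, with no overlap between groups. Its log2 fold change was 2.95 ± 0.08 in the double knockout (adjusted p = 4.12e-13), 1.50 ± 0.08 in the Ep300 knockout (adjusted p = 3.68e-09) and 0.61 ± 0.09 in the Crebbp knockout (adjusted p = 0.00115).

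Hbegf, an EGF receptor ligand, rose by 2.59 ± 0.12 in the double knockout (15.4 CPM, against 2.56 CPM in control) and by 1.06 ± 0.12 in the Ep300 knockout (5.32 CPM). Tgfa, another ligand of that receptor, rose by 1.48 ± 0.23 in the double knockout. Their receptor Egfr had 1 count in all. Ntf5, the gene of neurotrophin-4, rose by 2.79 ± 0.32 in the double knockout, with a control mean of 0.210 CPM. For the platelet-derived growth factor receptors, Pdgfa rose by 0.66 ± 0.10 and Pdgfb by 2.60 ± 0.48 in the double knockout, the second with a control mean of 0.0932 CPM. In the double knockout Fgf2 rose by 1.29 ± 0.27 and Efna3, the ephrin-A3 gene, by 1.66 ± 0.24. Their control means were low, at 0.295 CPM for Fgf2 and 0.402 CPM for Efna3. Efna5 fell by 0.47 ± 0.09 in the double knockout and by 0.40 ± 0.09 in the Ep300 knockout. Fgf1 fell by 0.77 ± 0.18 in the Crebbp knockout (adjusted p = 0.029), which did not hold without Crebbp-knockout replicate 1 or 2 or without any 1 control library (adjusted p 0.0525 to 0.104).

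All 21 genes for adaptors, sheddases and negative regulators of these receptors were tested. In the double knockout 16 rose and 2 fell (median log2 fold change 0.31), where 24.7% of all tested genes rose and 24.6% fell. In the Ep300 knockout 3 rose (median 0.09), and the count ran from 1 to 7 across alternatives. That share was close to the 16.1% called over all tested genes (7.27% higher, 8.83% lower). In the Crebbp knockout edgeR called none (median 0.09), with 3 at an unadjusted p under 0.05, while DESeq2 called 1 and limma-voom 0. Errfi1, which encodes MIG6, an inhibitor of EGF receptor family kinases, stood at 70.2 ± 1.65 CPM in the double knockout, 23.6 ± 0.548 CPM in the Ep300 knockout, 14.6 ± 0.670 CPM in the Crebbp knockout and 14.7 ± 0.211 CPM in control. It rose by 2.25 ± 0.06 in the double knockout and by 0.68 ± 0.06 in the Ep300 knockout, and exceeded the sum of the single changes by 1.58 ± 0.09 (adjusted p = 8.27e-08). The other genes that rose there did so by at most 0.99: Ptpn11, the SHP2 phosphatase, rose by 0.52 ± 0.07, the ubiquitin ligase genes Cblb and Cbl by 0.60 ± 0.09 and 0.53 ± 0.11, and the adaptor Gab2 by 0.46 ± 0.09. Lrig1, an inhibitor of receptor kinases, rose in the Ep300 knockout by 0.92 ± 0.27 (adjusted p = 0.0291), which did not hold without Ep300-knockout replicate 1 or 3 or control replicate 1 or 2 (adjusted p 0.0660 to 0.115).

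Over the 12 libraries, the tested genes whose log2 CPM followed Axl most closely, of 9547 with a mean of at least 5 CPM, were Irgm2 (Pearson r = 0.998), Xaf1 (0.997), Trim30a (0.997), Hspb6 (0.997) and Apol9b (0.997). The 12 points share 4 groups, and a gene that differs between the groups in the same order has a high r. Irgm2, an interferon-inducible GTPase gene, averaged 140 CPM in the double knockout, 41.7 CPM in the Ep300 knockout, 10.5 CPM in the Crebbp knockout and 6.59 CPM in control, close to the levels of Axl in each group. Apol9b has a near-identical paralog that can share its reads.

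Markers of other cell types were read in the same libraries. Of 8 macrophage and immune markers, 1 was tested, Cd68, and the list summed to 5.54 to 6.77 CPM in the double knockout, 3.29 to 3.86 CPM in the Ep300 knockout, 1.52 to 1.90 CPM in the Crebbp knockout and 1.73 to 2.19 CPM in control. The defining markers Adgre1 and Tyrobp had no count in any library, and Ptprc was at most 0.0121 CPM. Cd68, a lysosomal protein gene, rose by 1.73 in the double knockout against control (adjusted p = 5.48e-08) and by 0.90 in the Ep300 knockout. It was not called in the Crebbp knockout (-0.16). The part of Cd68 in the rise of Axl was not tested. Of 7 fibroblast markers, 3 were tested, and the list summed to 8.72 to 10.2 CPM in the double knockout, 13.7 to 18.3 CPM in the Ep300 knockout, 8.95 to 12.8 CPM in the Crebbp knockout and 8.88 to 10.4 CPM in control, in which the tested members moved in different directions. Col1a1 stood at 8.15 ± 0.824 CPM in the double knockout, 13.8 ± 2.47 CPM in the Ep300 knockout and 2.59 ± 0.308 CPM in control. It rose in the double knockout and in the Ep300 knockout. Col1a2 stood at 0.368 ± 0.118 CPM in the double knockout, 0.681 ± 0.124 CPM in the Ep300 knockout and 3.35 ± 0.285 CPM in control. Postn stood at 0.751 ± 0.184 CPM in the double knockout, 0.871 ± 0.175 CPM in the Ep300 knockout and 3.83 ± 0.304 CPM in control. Col1a2 and Postn fell in the double knockout and in the Ep300 knockout. In the Crebbp knockout, Col1a1 stood at 4.22 ± 1.03 CPM, Col1a2 at 3.80 ± 0.640 CPM and Postn at 2.68 ± 0.436 CPM. Of these 3 genes, 1 was called higher there and 0 lower. The part of these genes in the results above was not tested. Of the markers not tested, Dcn was at most 0.0303 CPM, Lum at most 0.0135 CPM and Thy1 at most 0.0175 CPM. Endothelial markers summed to at most 0.318 CPM and epithelial markers to at most 0.577 CPM in any library. The melanocyte markers fell in all 7 cases in the double knockout and in 6 in the Ep300 knockout. Axl, Epha2 and Ngfr rose in both of these groups. In the Crebbp knockout 0 of the 7 markers were called, with 1 at an unadjusted p under 0.05. Their sum there was 18351 to 19164 CPM, below the 19448 to 21397 CPM of control. The part of the melanocyte markers in the rises of Axl, Epha2 and Ngfr was not tested.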

How the data were processed

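The labels' protocols name the KAPA Stranded mRNA-Seq kit. bcl2fastq, HISAT2 and HTSeq are the tools named by the submitters' processing notes, with build mm10. Their versions, strand options and annotation were not given in sources used here. The authors deposited raw read counts per Ensembl gene, not normalized, with 1 column per library. Symbols, positions and exon lengths came from the GENCODE annotation for 54723 of 54752 genes. The other 29 held at most 0.00378% of a library's counts. Exons of Pdgfra and Fgfr1 overlap antisense genes that had at most 0.0149 CPM.

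Low genes were removed with filterByExpr, leaving 18434, and libraries were scaled by TMM. The quasi-likelihood F test of edgeR 4.0.16 (robust, R 4.3.3) used all 12 libraries with the group as the only term, after it was tested on simulated data. The biological coefficient of variation was 9.46%. Benjamini-Hochberg adjustment ran over all tested genes in each of 7 comparisons, which share libraries. Standard errors and 95% intervals derive from the F statistic. Replicates of a group differed by more than sampling noise. Alternatives were DESeq2 1.42.0, limma-voom (limma 3.58.1), RLE size factors, no filter, a filter of 1 CPM in 3 libraries, the replicate number as a block, only the groups compared, and each library left out. Offsets for exon length and GC content, and removal of both libraries farthest along the main within-group axis (control replicate 2 and Crebbp-knockout replicate 3), were added after seeing the data.

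The genes and lists were chosen with earlier results of these data known. By rule, all 10 genes were named in every comparison, with up to 4 genes of each pathway list by smallest adjusted p under 0.05 per knockout against control and up to 6 more in the double knockout, and the 5 genes most like Axl. Floors are 3 counts and cover counting error only.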

Additional observations from a re-analysis of the deposited data

Results flagged for a closer look

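For 4 of the 8 tested genes, the log2 step from Ep300 knockout to double knockout was unlike that from control to Crebbp knockout. The test was that of the double knockout against the sum of both single knockouts. For Axl the step was 1.77 from the Ep300 knockout and 0.93 from control, a difference of 0.84. For Mertk it was -1.09 from the Ep300 knockout and -0.14 from control, a difference of -0.95. For Pdgfrb it was -0.86 from the Ep300 knockout and -0.01 from control, a difference of -0.85. For Ngfr it was 1.57 from the Ep300 knockout and 0.53 from control, a difference of 1.04. The labels do not say whether a knockout is 1 clone or a pool, and Crebbp RNA in the double knockout overlapped control. An effect of Crebbp loss and a difference between the cell populations therefore cannot be told apart. Over all tested genes, 10.3% were called in the test against the sum. The Ngfr call was lost on removal of any 1 of 9 of the 12 libraries and the Mertk call on removal of any 1 of 6, and both were lost with the replicate number as a block. Groups of 3 libraries are too small for the test of single outlying samples.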

How the results depend on the processing

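Across 1161 values of 56 gene-by-comparison results under 21 alternatives (fewer where a gene or comparison could not be fitted), 1124 kept their side of the threshold, 19 lost a call, 18 gained one and no called value changed sign. Some values that were not called and lay near 0 did change sign, such as Pdgfrb in the Ep300 knockout against control (-0.11 to 0.06), Fgfr1 in the double knockout against the Crebbp knockout (-0.24 to 0.11) and the distance of Epha2 from the sum (-0.01 to 0.11). The count of called genes among the 8 in the Crebbp knockout against control was 1, and 2 with DESeq2, without a filter and with offsets for exon length and GC content, Pdgfra being the addition. The count for the Ep300 knockout against the Crebbp knockout was 2, 4 without a filter (Mertk and Ngfr added), and 3 with DESeq2 (Mertk, adjusted p = 0.033) and with the offsets (Ngfr, adjusted p = 0.0307). The count for the double knockout against the sum of the single knockouts was 4, and 2 with the replicate number as a block, where Mertk (adjusted p = 0.0651) and Ngfr (adjusted p = 0.0503) lost their calls. Only 1 of 18 pairs of libraries with the same number deviated together with a correlation over 0.1. Of the 12 libraries, 2 correlated best with their own number. The main fit did not pair libraries by number. With groups of 3, weak correlation cannot show that libraries with the same number were prepared apart.

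Leaving out 1 library at a time gave 3 to 5 called genes in the Ep300 knockout, 1 to 1 in the Crebbp knockout and 7 to 7 in the double knockout, each against control. It gave 2 to 4 for the Ep300 knockout against the Crebbp knockout, 7 to 8 for the double knockout against the Ep300 knockout, 7 to 7 against the Crebbp knockout and 2 to 5 against the sum. Without control replicate 2 and Crebbp-knockout replicate 3 together, in the same order of comparisons, the counts were 4, 1, 7, 3, 7, 7 and 5. Over all tested genes, the 577 calls in the Crebbp knockout ranged from 214 (without Crebbp-knockout replicate 2) to 1367 (offsets), and the 1897 calls against the sum from 1119 (without double-knockout replicate 2) to 2861 (without control replicate 2). Fgfr1 was also called without Ep300-knockout replicate 2 in the Ep300 knockout against the Crebbp knockout (-1.05, adjusted p = 0.0325) and in the double knockout against the Ep300 knockout (1.04, adjusted p = 0.0171). Counts in the pathway lists ranged, in the Ep300 knockout, from 1 to 7 for adaptors (3 as reported), in the Crebbp knockout from 0 to 3 for other receptor kinases (1), from 1 to 2 for ligands (2) and from 0 to 3 for adaptors (0), and against the sum from 2 to 6 for other receptor kinases (3) and from 2 to 5 for adaptors (2). The Maged1 call in the Ep300 knockout (0.19) was lost without any 1 of 10 libraries. Depth limits Fgfr1, with 20 to 53 counts a library, and Egfr and Gas6, with at most 2.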
